A study of Mus musculus with 3 samples.

Results

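Memory and effector CD8 T cells were taken from mouse spleen as the barcodes that carried T cell and CD8 messages, no B cell or CD4 message, and Ccl5, the chemokine message that separates antigen-experienced from naive CD8 cells. The rule asked for at least 300 genes, at least 500 unique molecular identifiers (UMIs, counts of original molecules) and at most 10% mitochondrial UMIs. It then asked for at least 1 UMI of Cd3e, at least 1 of Cd8a or Cd8b1, none of Cd79a or Cd4, at least 2 of Ccl5, and at least 1 of Cxcr3, Eomes, Gzmk, Nkg7 or Klrg1. It found 847 of 49499 kept barcodes: 206 in the Chow library, 372 in the MASH library and 269 in the library labelled MASH-Phe-free, called Phe-free here. Each group was 1 spleen library of 5′ single-cell RNA. The title of the series names phenylalanine and steatohepatitis-associated liver cancer. Its text describes C3H mice on a high-fat diet and then a modified methionine- and choline-deficient diet, beside mice on a control diet, all with HCA-1 liver cancer cells under the skin. The labels give the spleens a tissue and a group name only, so the diets, agents, ages, number of animals and tumour state behind these 3 libraries are not given in the sources used here.

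CD8 T cells kill cells that show a foreign or mutated peptide on MHC class I. A naive CD8 cell circulates through lymphoid organs, guided into lymph nodes by receptors such as Ccr7. After it meets its antigen it divides, its descendants share 1 rearranged T cell receptor, and it loads granules with perforin and granzymes. Some descendants persist as memory cells, either as central memory cells that keep circulating through lymphoid organs or as effector memory cells that patrol tissues, and they are kept by signals through Il7r and Il2rb.

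With 1 library per group there was no replicate, so the groups were compared without a test, and none of the values below has a replicate check. Brackets hold 95% intervals that cover counting error only; they are exact, apart from log-scale intervals for ratios of shares. They treat UMIs and cells as independent and leave out differences between animals, which cannot be told apart from differences between groups. Values that come as triples are given in the order Chow, MASH, Phe-free. The members carried 2506052, 4035871 and 2862953 UMIs, with medians of 9841.5, 9189 and 8263 UMIs per cell. Between 72 and 102 barcodes were shared by pairs of libraries, and none of them was a member in both.

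Ccl5 divided the CD8 cells cleanly. Of the CD8 T gate (the rule without Ccl5 and the 5 further genes), 891 of 1126, 693 of 1090 and 556 of 842 cells had no Ccl5 UMI. Only 28, 25 and 17 cells had exactly 1, and 11, 10 and 9 had exactly 2, while 188, 353 and 253 had 5 or more. Of the cells with 1 Ccl5 UMI, just outside the threshold, 27, 25 and 16 carried a further gene, and of those with 2, just inside it, 11, 10 and 9 did. Nkg7, 1 of the further genes, also had a UMI in 816, 650 and 515 of the cells without Ccl5. A further gene thus says little about the type of a cell near the threshold. The median member held 58.5, 119 and 108 Ccl5 UMIs.

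Members made up a larger share of the spleen in MASH than in Chow. They were 1.29% [1.12–1.48], 2.11% [1.90–2.33] and 1.70% [1.5–1.91] of kept barcodes. MASH stood 1.64-fold [1.38–1.94] above Chow, and Phe-free stood at 0.805 [0.689–0.940] of the MASH share. Within the CD8 T gate they were 18.3% [16.1–20.7], 34.1% [31.3–37.0] and 31.9% [28.8–35.2]. On that base MASH stood 1.87-fold [1.61–2.16] above Chow, whereas the interval of the Phe-free over MASH ratio, 0.936 [0.823–1.06], included 1. The CD8 T gate itself was 7.04%, 6.18% and 5.31% of kept barcodes, so the lower share of members in Phe-free than in MASH went with fewer CD8 cells in all. A share of barcodes does not tell more cells of a type from fewer cells of the others.

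**Figure D1:**
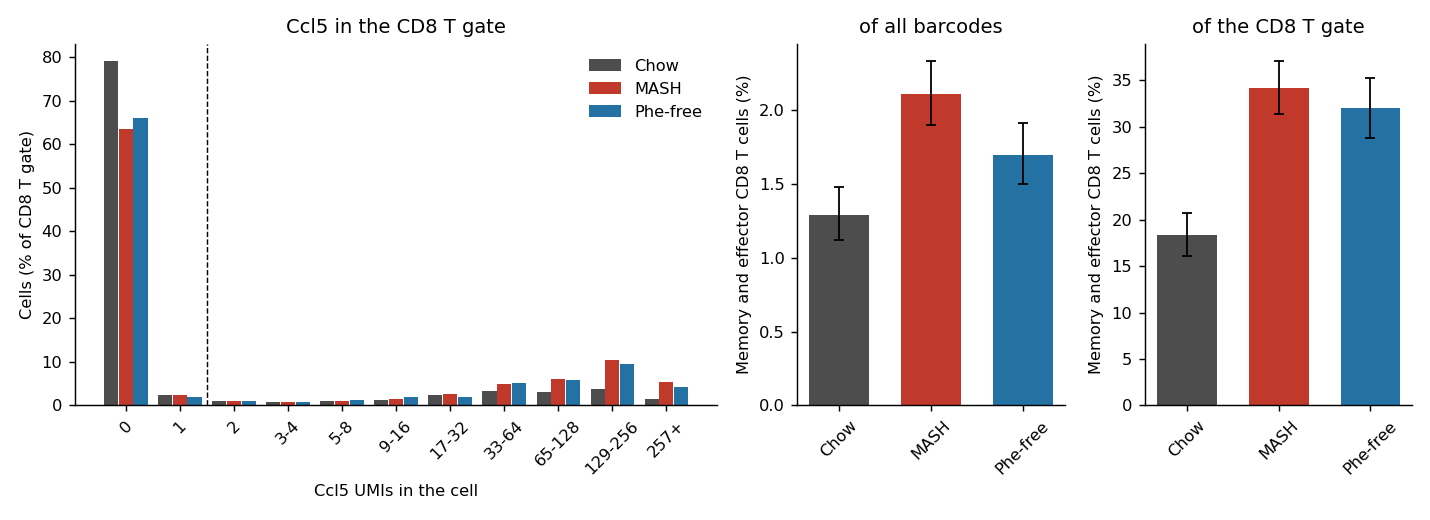
Left, cells of the CD8 T gate by their number of Ccl5 UMIs, as a percent of the gate in each library, with the threshold of the rule as a dashed line. Right, members as a percent of all kept barcodes and of the CD8 T gate, with exact 95% intervals. Few cells lie near the threshold, and the Chow bar is the lowest on both bases.

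The rest of the profile was that of antigen-experienced CD8 cells. The members were chosen by their counts of Cd3e, Cd8a, Cd8b1, Cd79a, Cd4, Ccl5 and the 5 further genes in these same libraries, so the levels are a description without a test. The comparison cells were CD8 T gate cells with no Ccl5 UMI and a message of naive cells (871, 676 and 543 cells, called Ccl5-zero CD8 cells), a class chosen after the data were seen. Klrc1, an inhibitory lectin receptor, was at 129, 267 and 194 CPM (UMIs of the gene per 1e6 UMIs of the cell class) in members, against 3.43, 5.51 and 7.96 CPM in Ccl5-zero CD8 cells. Gzmb, a granzyme, was at 219, 351 and 281 CPM against 1.99, 3.72 and 19.7. Fasl, a death ligand, was at 86.6, 103 and 90.5 CPM against 1.66, 0.963 and 5.25. The calcium-binding messages S100a4 and S100a6 and the inhibitory receptor Tigit were also above the Ccl5-zero cells in every library. In the other direction, Igfbp4 was at 6.78, 11.6 and 14.3 CPM in members against 249, 258 and 285, and Ccr9, a gut-homing receptor, at 11.6, 1.49 and 1.75 against 94.0, 82.3 and 68.9. Itgae, an integrin of naive CD8 cells and of epithelial resident cells, was likewise lower in members, at 15.2, 11.4 and 10.1 CPM against levels of 80.9 CPM or more.

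The 5 further genes of the rule were unevenly spread. Nkg7, a granule protein, had a UMI in 100%, 99.7% and 98.9% of members, but also in 92.2%, 95% and 92.8% of Ccl5-zero CD8 cells of similar depth (medians of 9948, 9874 and 9516 UMIs), so it did not separate them. Gzmk, a granzyme of memory cells, had a UMI in 60.2%, 71.2% and 65.1% of members against 1.38%, 2.07% and 3.13% of Ccl5-zero CD8 cells. Cxcr3, which guides cells to inflamed tissue, had one in 77.2%, 83.6% and 77.7%, and Eomes, a T-box factor of memory cells, in 66.0%, 63.2% and 58.7%. Klrg1, which marks terminal effector cells, was rare, at 3.88%, 10.8% and 8.92% of members. After every cell was thinned to 2000 UMIs, which left out 4, 5 and 6 members, Gzmk was found in 47.5%, 49.3% and 44.1% of members, Cxcr3 in 29.2%, 42.0% and 41.8%, and Klrg1 in 1.49%, 4.63% and 2.28%.

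Natural killer (NK) cells also express Ccl5 and granzymes, so the members were set beside the NK gate of each library (no Cd3e, Ncr1 or Klrb1c present, Nkg7 present). Cd8a, the CD8 alpha chain, was at 357, 401 and 366 CPM in members. Cd8b1, the beta chain, was at 807, 889 and 916 CPM in members and at 0.535, 0 and 0 CPM in NK cells. Pdcd1, the inhibitory receptor PD-1, was at 119, 174 and 131 CPM against 0, 1.26 and 1.69. Cxcr6, a receptor of liver-homing and tissue T cells, was at 186, 361 and 327 CPM against 9.90, 13.4 and 17.5. Ncr1, the NK receptor NKp46 that the NK gate itself uses, was at 49.1, 5.45 and 7.68 CPM in members and at 2382, 2667 and 2334 CPM in NK cells. In the members it came from 8 Chow, 3 MASH and 2 Phe-free cells.

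**Figure D2:**
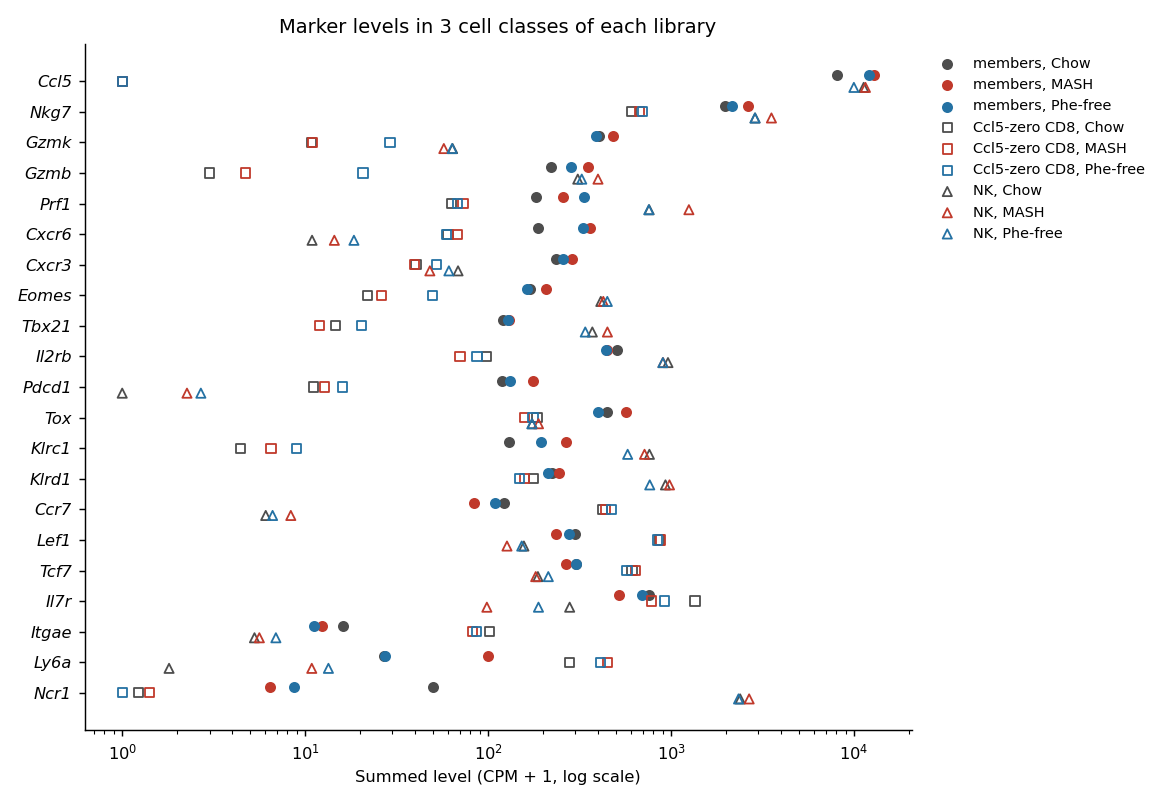
Summed level of marker genes (CPM plus 1, log scale) in members (filled circles), Ccl5-zero CD8 cells (squares) and NK cells (triangles) of Chow (grey), MASH (red) and Phe-free (blue). Members lie apart from NK cells in Pdcd1 and Cxcr6 and from Ccl5-zero CD8 cells in Gzmb and Klrc1 in all 3 libraries.

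Messages of other cell types were found among the members in differing amounts. Between 3.35% and 5.34% of members in a library had 2 or more UMIs of the 8 B cell markers, whose summed level was 33.9 to 39.9 CPM. In addition, 14, 10 and 10 members had a UMI of Trdc, Zbtb16 or Klrb1c, genes of gamma-delta and innate-like T cells. The 9 neutrophil markers summed to 3699, 2316 and 7206 CPM, of which 97.8%, 81.5% and 60.7% lay in 1 cell per library, and 14.1%, 3.23% and 24.5% of members had 2 or more of these UMIs. The 10 erythroid markers summed to 23.9, 4036 and 1575 CPM, of which 8.33%, 32.7% and 89.1% lay in 1 cell, and 1.46%, 24.5% and 8.92% of members had 2 or more. The 10 dendritic cell markers summed to 454, 384 and 346 CPM, with 2 or more UMIs in 45.6%, 38.4% and 33.8% of members, and to 496, 436 and 585 CPM in Ccl5-zero CD8 cells. Cst3, the most widely found of the 10, was at 196, 219 and 156 CPM in members, with a UMI in 66.5%, 73.7% and 67.7%. Cd74 was at 158, 89.9 and 132 CPM. Siglech had 0 UMIs in every library, and Clec9a was found in 0, 3 and 0 members. The sum thus does not count members with messages of dendritic cells. In all, 7 Chow, 22 MASH and 12 Phe-free members held 20 or more UMIs of the marker list of another blood lineage. The lists of NK, gamma-delta and innate-like T cells were not used for this count.

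A small part of the members was in cell cycle. Mki67, a marker of dividing cells, had a UMI in 21.4%, 27.4% and 23.4% of members against 3.21%, 3.40% and 5.34% of Ccl5-zero CD8 cells. At least 5 of 10 cycle genes were found in 9.71% [6.03–14.6], 8.60% [5.96–11.9] and 6.69% [4.01–10.4] of members, and these intervals overlap.

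Receptor gene use was more repetitive in MASH and Phe-free members than in Chow members. Libraries made from the 5′ end read the variable (V) segments of the receptor chains, and each cell was given its most counted Trbv and Trav gene, together called its receptor gene pair. The junctions between the segments, which identify a clone, were not analysed here, and near-identical V gene copies cannot be told apart. Both genes were found in 181, 329 and 246 members. Of all possible pairings of such members within a library, 0.491%, 1.95% and 1.68% joined cells with the same receptor gene pair, against 0.269%, 0.296% and 0.259% of Ccl5-zero CD8 cells. No pair was held by 10 or more members in Chow, where the most used one had 6 cells. In MASH 3 pairs reached 10 cells and together held 67 members, 20.4% [16.1–25.1] of those with a pair, and in Phe-free 3 pairs held 43 members, 17.5% [12.9–22.8]. The minimum of 10 cells was chosen after the data were seen. It is a count and not a share, so it was harder to reach in Chow, which had the fewest such members. The top Chow pair held 3.31% of them, and the MASH pair of 11 cells held 3.34%. Pairs of 5 or more cells, also a count, held 8.84% [5.14–14.0], 37.7% [32.4–43.2] and 34.1% [28.2–40.4] of members with a pair. In the more numerous Ccl5-zero CD8 cells they held 21.0%, 21.0% and 11.7%.

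The large pairs differed between the MASH and Phe-free libraries. In MASH they were Trbv30 with Trav9-4 (32 cells), Trbv1 with Trav8n-2 (24 cells) and Trbv19 with Trav14d-1 (11 cells). In Phe-free they were Trbv19 with Trav9-2 (22 cells), Trbv13-3 with Trav12-3 (11 cells) and Trbv19 with Trav6d-5 (10 cells). Trbv30 with Trav9-4 and Trbv1 with Trav8n-2 were found in 0 members of the other libraries and in 0 Ccl5-zero CD8 cells of any library. Trbv13-3 with Trav12-3 was less exclusive, with 1 Chow and 5 MASH members and 9, 7 and 6 Ccl5-zero CD8 cells. Trbv30 was the leading Trbv gene of 10.9% [7.92–14.6] of MASH members, against 0.500% of Chow members, 0.379% of Phe-free members and 0.450% of MASH Ccl5-zero CD8 cells. Trbv19 led in 25% [19.9–30.7] of Phe-free members, against 12.5% of Chow and 14.5% of MASH members and 15.0% of Phe-free Ccl5-zero CD8 cells.

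Further receptor messages recurred within these pairs. Of the 10 Phe-free cells with Trbv19 and Trav6d-5, 8 also carried Trav9-2, which was found in 38 of the other 236 Phe-free members with a pair, 22 of them the cells whose pair was Trbv19 with Trav9-2. Of the 24 MASH cells with Trbv1 and Trav8n-2, 11 also carried Trav6-5, against 6.56% of the others, and Trbv1 with Trav6-5 was itself the pair of 9 MASH members. Of the 32 cells with Trbv30 and Trav9-4, 11 also carried Trbv12-1, against 1.68% of the others. Of the 11 Phe-free cells with Trbv13-3 and Trav12-3, 10 also carried Trbv31, against 9.79% of the others. A T cell can carry a second rearranged or unrearranged receptor allele, so 1 receptor may be counted under more than 1 pair.

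Outside the gene lists and the immunoglobulin genes, Prss2 was the gene farthest above MASH in Phe-free, and it followed the receptor pairs. Prss2 encodes a pancreatic trypsin, and RefSeq (GRCm38.p6) places it inside the T cell receptor beta locus as the gene next to Trbd1, the first diversity segment. Its summed level was 9.58, 0.496 and 104 CPM, and it had a UMI in 8, 1 and 40 members. In Phe-free it was found in 21 of 22 cells with Trbv19 and Trav9-2 and in 10 of 10 cells with Trbv19 and Trav6d-5. It was found in 0 of 11 cells with Trbv13-3 and Trav12-3 and in 9 of 226 members outside the large pairs. None of the 67 MASH cells in large pairs carried it, among them the 11 with Trbv19. The log2 ratio for Phe-free over MASH was 3.45 over all members and 1.12 without the large pairs.

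Members of the large pairs carried Gzmk, Cxcr6, Gzmb, Pdcd1, Havcr2 and Cx3cr1 more often, and Ccr7, Tcf7, Bach2 and Xcl1 less often, than the other MASH members. These genes were chosen after their values were seen, and cells of 1 pair share a library and possibly a clone, so counts of cells are given without a test. Gzmk is also 1 of the 5 further genes of the rule that chose the members. In MASH, Ccr7 had a UMI in 3 of 67 members of large pairs, 4.48% [0.933–12.5], against 31.8% [26.6–37.4] of 305 other members. Tcf7, a factor of self-renewing memory cells, was found in 16.4% against 60.0% and Bach2, a repressor of effector genes, in 16.4% against 49.2%. Gzmk was found in 95.5% against 65.9%, Cxcr6 in 94.0% against 65.9%, Gzmb in 79.1% against 40.3% and Pdcd1 in 74.6% against 50.2%. Havcr2, the inhibitory receptor TIM-3, was found in 53.7% [41.1–66.0] against 20% [15.7–24.9], and Cx3cr1, a receptor of circulating effector cells, in 37.3% against 13.1%. Xcl1, a chemokine for cross-presenting dendritic cells, was found in 0 of 67 cells and in 62 of 305 others. That 0 allows a share of cells with a UMI of up to 4.48% (3 counts of the total), and its exact interval ends at 5.36%. The median depth was 8132 UMIs in the large pairs and 9418 in the others.

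Phe-free members of large pairs shared part of this profile. Gzmk was found in 93.0% of them against 59.7% of the other Phe-free members, Cxcr6 in 88.4% against 65.5%, Fasl in 67.4% against 42.5% and Ccr7 in 11.6% [3.89–25.1] against 33.2% [27.1–39.7]. Havcr2 was not higher there, with a UMI in 9.30% [2.59–22.1] against 13.3% [9.14–18.4]. Pdcd1 was found in 51.2% against 40.7% and Tcf7 in 48.8% against 61.5%, with intervals that overlap. Each of the 6 pairs had Gzmk in at least 90% and Cxcr6 in at least 80% of its cells.

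**Figure D3:**
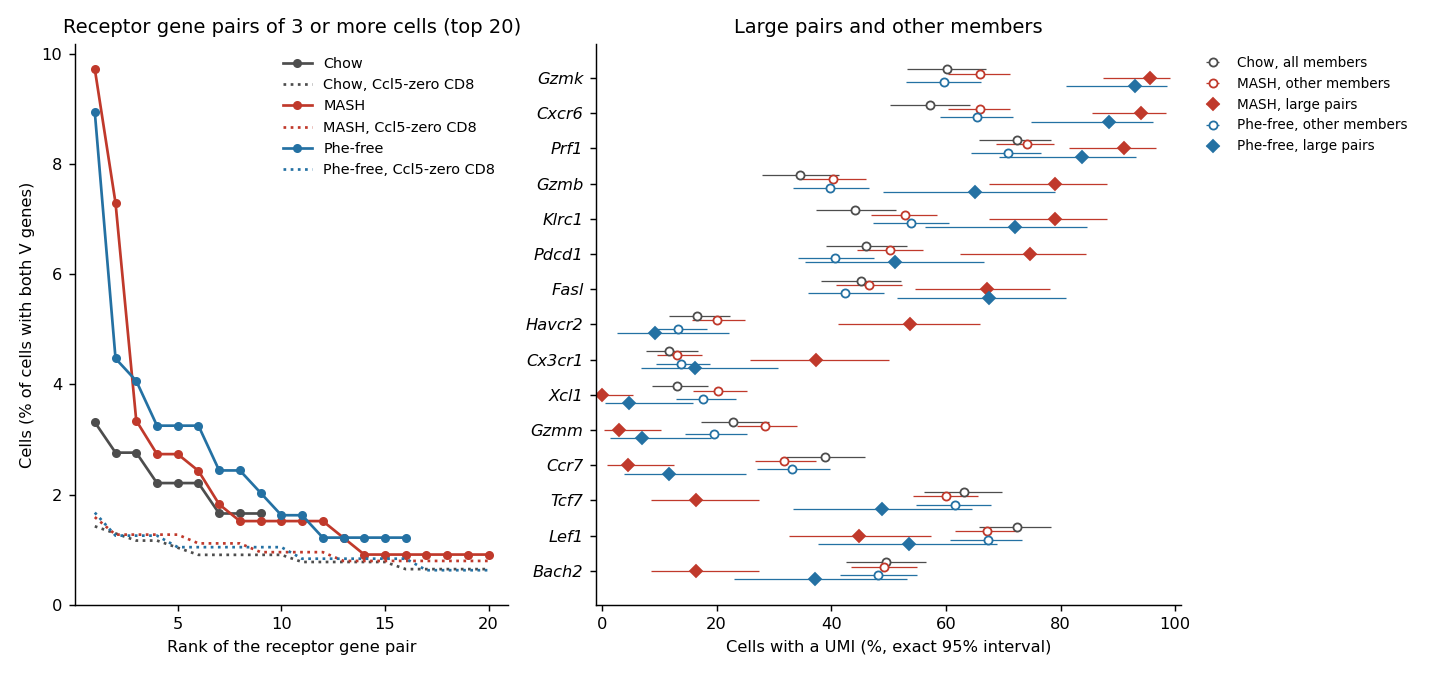
Left, share of cells with both V genes held by each receptor gene pair of 3 or more cells, by rank, in members (solid) and Ccl5-zero CD8 cells (dotted). Right, percent of cells with a UMI, with exact 95% intervals, in members of the large pairs (diamonds) and in the other members (open circles; all members in Chow). The leading pairs of MASH and Phe-free lie above those of Chow, and large pairs lie high in Gzmk and Cxcr6 and low in Ccr7.

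Gene expression was then compared between libraries, first MASH with Chow and then Phe-free with MASH. Both use the same MASH library, so a high or low MASH value appears in both with opposite sign, and the values of all 3 libraries are given side by side. A gene was counted past the fold when its ratio reached 1.5 after 10 CPM were added to each level, among genes with at least 20 UMIs in the 2 libraries together. Over all genes, 114 of 10600 (1.08%) passed higher and 146 (1.38%) lower in MASH than in Chow, and 142 of 10745 (1.32%) passed higher and 68 (0.633%) lower in Phe-free than in MASH, which is 2.45% and 1.95% in either direction. Without the members that carried another lineage's markers, 57 genes passed higher in Phe-free than in MASH. The medians over all genes were −0.01 and −0.02 on the log2 scale.

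Type I interferon response genes were higher in MASH members than in members of both other libraries. Interferons bind a receptor that switches on antiviral genes through transcription factors that include Irf9. Of 43 genes of this list that were measured, 41 were higher in MASH than in Chow, 18 passed the fold higher and 0 lower, against 1.08% of all genes, with a median log2 ratio of 0.46. Of the same number measured in Phe-free and MASH, 3 were higher in Phe-free, 0 passed higher and 11 passed lower, against 0.633% of all genes, with a median of −0.40. In Ccl5-zero CD8 cells 8 passed higher in MASH than in Chow (0.49% of all genes there), with a median of 0.31, and 1 passed lower in Phe-free than in MASH (0.297% of all genes), with a median of −0.15. Phe-free over Chow gave 5 higher and 0 lower in members (1.33% of all genes higher) and 1 higher in Ccl5-zero CD8 cells (0.285%). Without the large receptor pairs the medians in members were 0.50 and −0.39.

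Isg15, a ubiquitin-like modifier, was at 19.2, 103 and 62.9 CPM. MASH stood 5.38-fold [3.99–7.42] above Chow, Phe-free lay between them, and the UMIs came from 32, 126 and 58 cells. Ifit1, which binds viral RNA, was at 6.78, 40.4 and 17.1 CPM. Its MASH level was 5.95-fold that of Chow, with an interval from 3.61, and its Phe-free level was 0.424 [0.301–0.586] of that in MASH. Ifi27l2a, an interferon-inducible gene, was at 312, 694 and 375 CPM, and Mx1, a GTPase that traps viral particles, at 19.2, 33.7 and 16.4 CPM. The Phe-free level of both was close to that of Chow. Ly6a, the surface antigen Sca-1, was at 25.9, 98.4 and 26.2 CPM in members but at 276, 449 and 409 CPM in Ccl5-zero CD8 cells. Its Phe-free over MASH ratio was thus 0.266 [0.205–0.342] in members, where Phe-free was at the Chow level, while Phe-free Ccl5-zero CD8 cells lay nearer to MASH. The difference between the cell classes was not tested. Not every gene followed: Isg20, an exonuclease, was at 15.2, 41.1 and 40.5 CPM, nearly level between MASH and Phe-free. Rsad2, an antiviral enzyme, was at 0.798, 12.9 and 14.0 CPM, but its UMIs came from 2, 21 and 4 cells. Per cell, the median UMIs of the 46 list genes per 10000 UMIs were 28.9, 38.7 and 30.3, and the 90th percentile was 52.5, 97.6 and 69.2, so MASH was higher in the middle and at the top of the members.

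Promoters of 3 of these genes are shown because they hold the motif that interferon-activated factors bind, and their messages were highest in the same library. The 200 bases before each start are from RefSeq on GRCm38.p6, a build other than that of the count files, and capitals mark the motif, which is TTTC, any 2 bases and TTTC again, or its reverse complement with GAAA in both places. Matches may overlap. The Isg15 window is chr4:156200819-156201018 on the minus strand with 3 matches, that of Ifit1 chr19:34640689-34640888 on the plus strand with 2, and that of Ifit3, a partner of Ifit1 at 18.8, 42.4 and 23.4 CPM, chr19:34583329-34583528 on the plus strand with 2.
Isg15: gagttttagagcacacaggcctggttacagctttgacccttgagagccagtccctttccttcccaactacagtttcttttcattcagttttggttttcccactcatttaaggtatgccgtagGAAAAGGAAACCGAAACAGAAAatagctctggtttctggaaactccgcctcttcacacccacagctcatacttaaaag
Ifit1: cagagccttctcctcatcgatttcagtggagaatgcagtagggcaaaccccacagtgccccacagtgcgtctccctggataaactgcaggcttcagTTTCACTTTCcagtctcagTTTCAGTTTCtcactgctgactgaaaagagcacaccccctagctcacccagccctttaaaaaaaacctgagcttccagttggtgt
Ifit3: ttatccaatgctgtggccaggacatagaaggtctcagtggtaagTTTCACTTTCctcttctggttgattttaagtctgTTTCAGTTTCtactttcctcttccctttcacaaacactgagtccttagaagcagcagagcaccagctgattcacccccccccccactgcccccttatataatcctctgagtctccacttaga
In the 250 bases before the start, 19 of the 36 list genes in the RefSeq table (52.8%) held a match on either strand, and so did 936 of 27025 genes of that table searched in the same way (3.46%). A match describes the letters and does not show a bound factor.

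**Figure D4:**
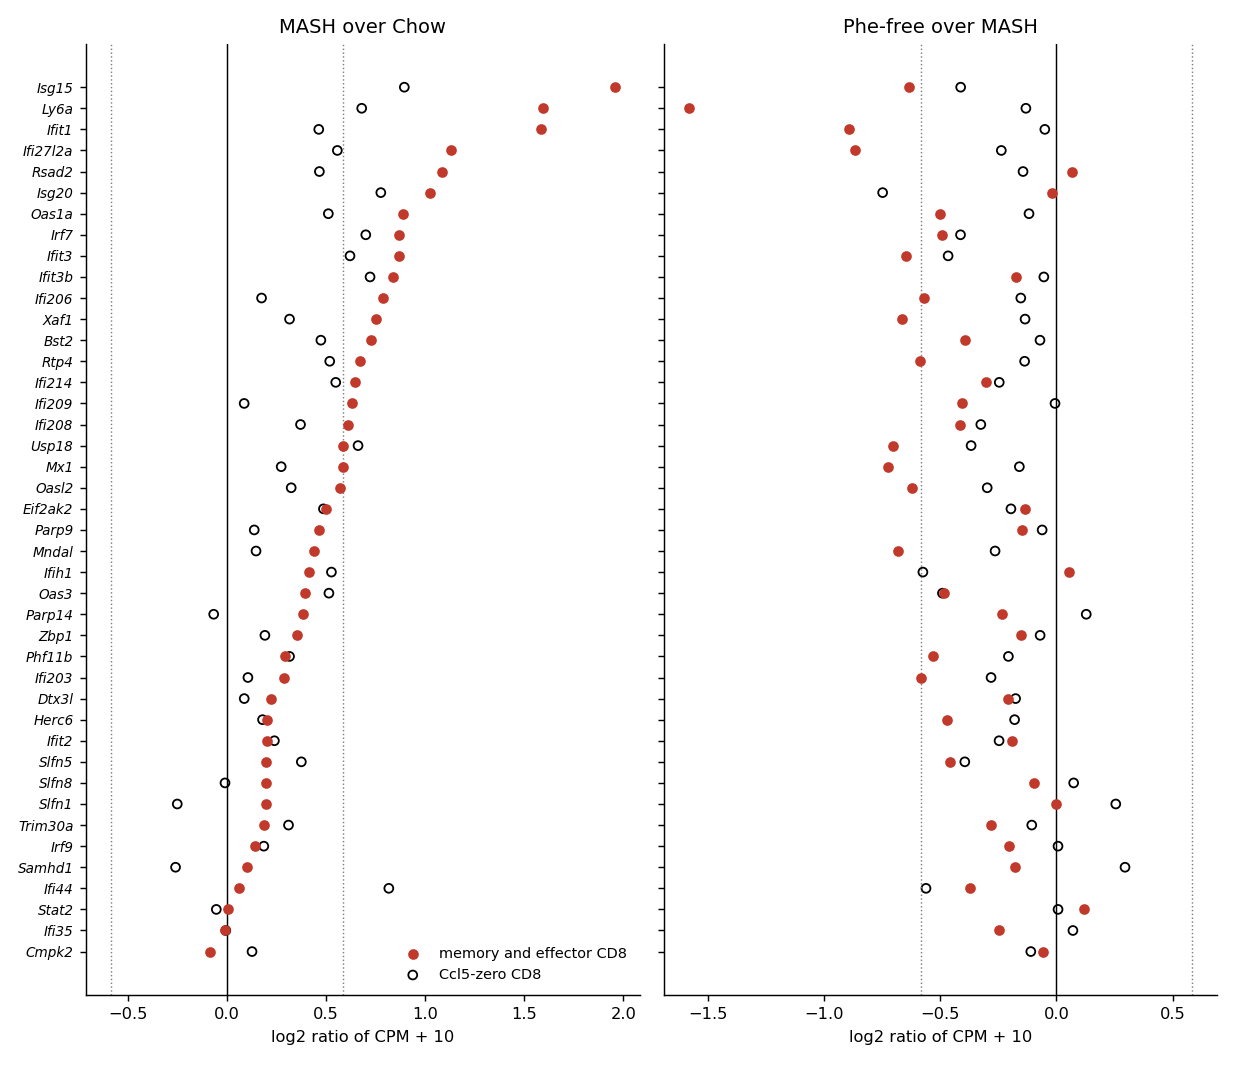
Log2 ratio of CPM plus 10 for the measured type I interferon response genes but 1, MASH over Chow on the left and Phe-free over MASH on the right, in members (red) and Ccl5-zero CD8 cells (open). Dotted lines mark 1.5-fold. Most red points lie right of 0 on the left and left of 0 on the right, and both panels share the MASH library.

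Genes of neighbouring pathways differed less. Class I MHC genes, which interferons also raise, were higher in MASH than in Chow in 18 of 18 cases, but none passed the fold, with a median log2 ratio of 0.20, and 1 of 18 was higher in Phe-free than in MASH, with a median of −0.16. H2-T23, a nonclassical class I gene, was at 391, 530 and 397 CPM. Of 19 interferon-gamma response genes, 0 passed the fold in MASH over Chow (median 0.08) and 1 passed higher in Phe-free over MASH (median 0.06). That gene was Tgtp1, an immunity-related GTPase, at 17.2, 22.3 and 45.8 CPM. Members held less of it than Ccl5-zero CD8 cells (168, 169 and 193 CPM).

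Glucocorticoid target genes were lower in MASH and in Phe-free than in Chow. Glucocorticoids are stress hormones that restrain T cells. Of 19 targets measured, 5 passed the fold lower in MASH than in Chow and 0 higher, against 1.38% of all genes lower, with a median log2 ratio of −0.36, and in Ccl5-zero CD8 cells 6 passed lower and 2 higher (0.414% and 0.49% of all genes). Phe-free over Chow gave 5 of 18 lower and 2 higher in members (1.28% of all genes lower, 2.61% in either direction), with a median of −0.29, and 4 lower in Ccl5-zero CD8 cells (0.302%). Tsc22d3, which encodes the glucocorticoid-induced protein GILZ, was at 287, 119 and 158 CPM, and the ratio of MASH over Chow was 0.415 [0.369–0.466]. Fkbp5, a feedback chaperone of the receptor, was at 150, 80.0 and 52.7 CPM. Cxcr4, a bone marrow homing receptor, was at 99.8, 47.1 and 46.1 CPM, and Pik3ip1, an inhibitor of PI3K, at 133, 73.6 and 92.6 CPM. Ddit4, an inhibitor of mTORC1 that is also on the amino acid response list, was at 211, 120 and 94.3 CPM. Chow was highest in all 5 of these genes. Phe-free over MASH gave a median of 0.01, with 2 of 18 genes past the fold higher: Mt1 and Mt2, metallothioneins, each of which came mostly from 1 Phe-free cell (69.7% and 93.5% of its UMIs). Their log2 ratios were 1.78 and 1.54, and 1.04 and 0.19 without the members that carried another lineage's markers.

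Among cytotoxic and effector genes the levels differed gene by gene rather than as a list. Of 20 granule and killing genes, 1 passed the fold higher in MASH than in Chow (Gzmb) and 1 lower (Gzma), against 1.08% and 1.38% of all genes, and 0 passed in Phe-free over MASH. Gzmb was 1.60-fold [1.45–1.77] higher in MASH than in Chow over all members. In MASH it was found more often in members of the large receptor pairs than in the others, and Chow had no such pair. Gzma, a granzyme also made by NK cells, was at 400, 103 and 139 CPM, and its UMIs came from 36, 43 and 26 cells. Without the members that carried another lineage's markers Gzma was at 311, 111 and 154 CPM. The marker lists behind that step did not include those of NK, gamma-delta or innate-like T cells, so such messages did not remove a member. Of 22 NK receptor genes in the files, 16 were measured in MASH and Chow, where 2 passed higher and 4 lower, against 1.08% and 1.38% of all genes. In Ccl5-zero CD8 cells 0 of 9 passed in either direction. Klrc1 was 2.06-fold [1.82–2.34] higher, while Ncr1, Tyrobp and Fcer1g, which signal in NK and myeloid cells, were lower in MASH. Tyrobp was at 142, 56.7 and 92.9 CPM with UMIs in 23, 35 and 26 cells, and without the carriers of other lineages at 51.5, 10.7 and 14.9 CPM.

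Chemokine, homing and inhibitory receptor genes passed the fold in both directions in MASH over Chow. Of 14 cytokine and chemokine genes 3 passed higher and 1 lower, of 22 trafficking and adhesion receptors 3 passed higher and 3 lower, and of 22 inhibitory receptor and exhaustion genes 2 passed higher and 1 lower, against 1.08% of all genes higher and 1.38% lower. The medians of the 3 lists were 0.09, 0.08 and 0.22. In Ccl5-zero CD8 cells 3 of 12, 0 of 20 and 0 of 21 passed higher and 0, 1 and 0 lower. Over all genes there, 0.49% passed higher and 0.414% lower. The list medians in those cells were 0.09, −0.04 and −0.06. Ccl4, an inflammatory chemokine, was at 50.7, 144 and 124 CPM, with 42.0% of its MASH UMIs in 1 cell, and Xcl1 at 21.9, 66.4 and 37.0 CPM. Ccl3 was at 23.5, 48.8 and 81.7 CPM. Cxcr6 was 1.94-fold [1.74–2.15] higher in MASH than in Chow. Its log2 ratio was 0.92, and 0.52 without the large pairs, which is under the fold. Leaving out the large pairs took cells from MASH and 0 from Chow. Cxcr6, Cx3cr1 and Havcr2 were found more often in those cells, so lower ratios were built into this setting. Cx3cr1 had a log2 ratio of 0.86 and of 0.56 without the large pairs. Havcr2 (38.3, 63.4 and 47.2 CPM) had 0.60 and 0.37, and −0.064 when every cell was weighted alike. Lag3 (40.7, 67.1 and 59.0 CPM) had 0.61 and 0.50. Ikzf2, the factor Helios, stayed past the fold without the large pairs, with 0.96 and 1.08, at 37.9, 83.0 and 59.7 CPM. Isg15 did too, with 1.96 and 1.88. Pdcd1 and Tox, a factor of chronically stimulated T cells, stayed under the fold, and Tnfrsf9, the costimulatory receptor 4-1BB, was at 34.7, 28.7 and 69.2 CPM, past the fold higher in Phe-free than in MASH.

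The medians of the naive and cell cycle lists lay below 0 in MASH over Chow, whereas memory receptors and memory transcription factors had medians of −0.03 and 0.08. Of 19 naive and quiescence genes, 4 were higher in MASH and 1 passed the fold lower, against 1.38% of all genes, with a median log2 ratio of −0.24, and in Phe-free over MASH 16 were higher, none passed, and the median was 0.18. Il7r, the IL-7 receptor chain, was at 757, 516 and 689 CPM and Bcl2, a survival factor, at 478, 328 and 410 CPM, both under the fold. Of 25 cycle genes, 7 passed lower in MASH than in Chow and none higher, against the same 1.38%, with a median of −0.31, and none passed in Phe-free over MASH, with a median of 0.07, where 7 passed higher in Ccl5-zero CD8 cells (0.577% of all genes). Per cell MASH did not lie below Chow, as the cycle UMIs per 10000 UMIs had medians of 19.1, 19.3 and 18.0 and 90th percentiles of 42.8, 43.6 and 36.8. Ccnb1, a mitotic cyclin, was at 49.9, 22.8 and 18.9 CPM with UMIs in 8.25%, 5.38% and 6.32% of members. Medians were also taken for T cell receptor signalling genes (0.09 and −0.19), amino acid response genes (−0.04 and 0.07), tRNA synthetases (0.01 and 0.03), GIMAP genes (0.12 and −0.04) and glycolysis genes (0.03 and 0.00). Of these genes only Ddit4 (MASH over Chow) and Asns (Phe-free over MASH) passed the fold. Asns, asparagine synthetase, had a log2 ratio of 0.63 that was 0.18 without the members that carried another lineage's markers.

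**Figure D5:**
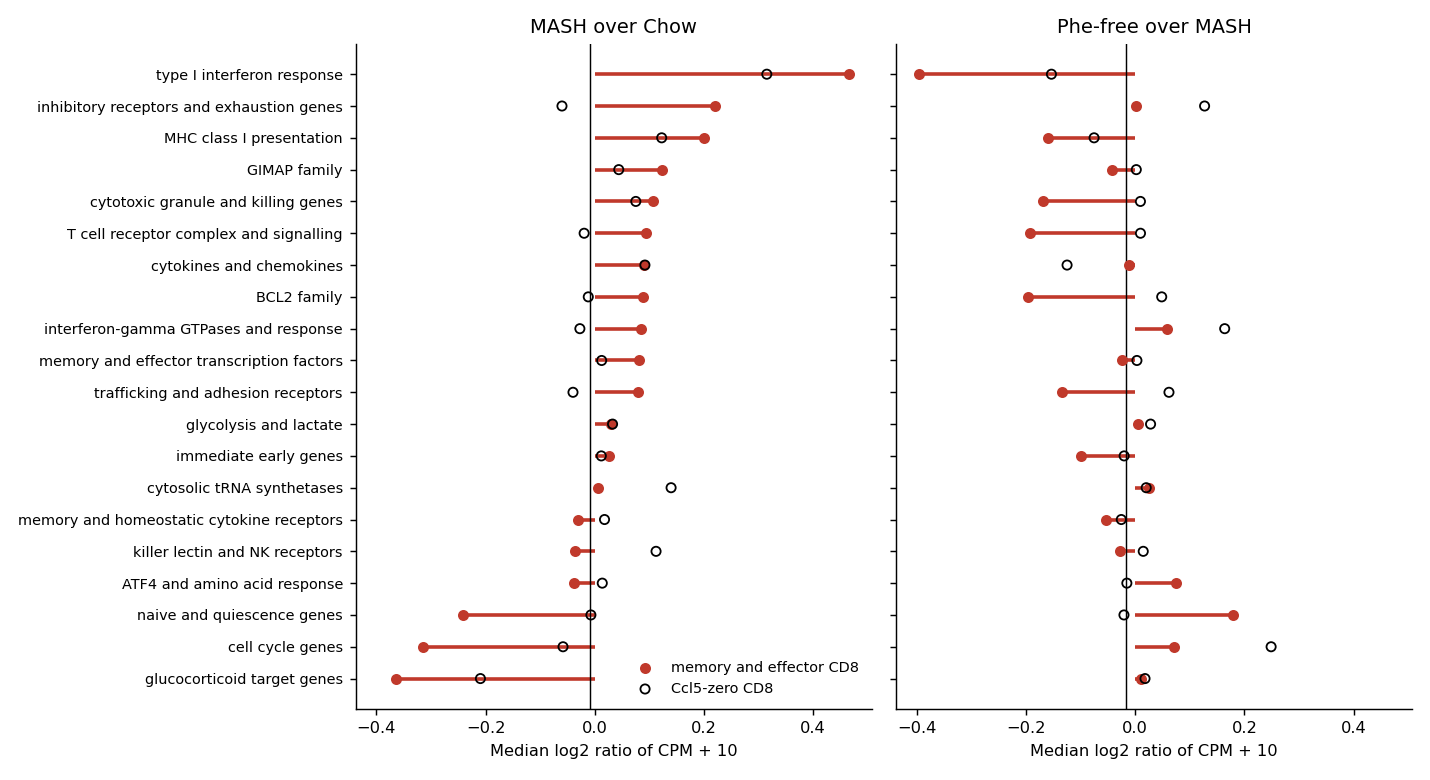
Median log2 ratio of CPM plus 10 over the measured genes of 20 lists, MASH over Chow on the left and Phe-free over MASH on the right, in members (red) and Ccl5-zero CD8 cells (open). The vertical line is the median over all genes and bars start at 0. Interferon and glucocorticoid lists lie farthest out on the left, and the interferon list farthest out on the right.

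Outside the lists, Lilrb4b was the gene farthest above Chow in MASH that met the minimum levels. T cell receptor, immunoglobulin and haemoglobin genes were left aside. Lilrb4b, an immunoglobulin-like receptor, was at 14.8, 54.8 and 40.2 CPM. Its ratio was 3.71 [2.61–5.41], with UMIs in 9.22%, 23.9% and 24.2% of members. Rnf213, Ifi27 and Ddx60 were also among the highest, and the last is an RNA sensor at 30.7, 51.5 and 32.1 CPM. Klhl6, an adaptor of ubiquitin ligases, was lower, at 328, 168 and 176 CPM, and also lower in Ccl5-zero CD8 cells (341, 176 and 207 CPM). Baz2b and Ass1, the enzyme argininosuccinate synthase, were at 68.6, 39.6 and 48.9 CPM and at 50.3, 28.0 and 30.7 CPM. Plac8 was lower in MASH as counted (186, 90.7 and 121 CPM) but higher without the carriers of other lineages (58.0, 86.8 and 71.1 CPM). In Phe-free over MASH, Lcn2 and Ifitm3 were past the fold higher, and 60.3% and 28.5% of their Phe-free UMIs lay in 1 cell. Without the carriers of other lineages Lcn2 was at 2.60, 0.268 and 5.86 CPM and Ifitm3 at 6.92, 3.21 and 7.82 CPM. The replication histones H1f5 (263, 188 and 424 CPM) and H2ac8 (342, 275 and 489 CPM) were higher in Phe-free, with H1f5 in 8.74%, 8.87% and 8.92% of members, and without the carriers of other lineages they were at 210, 196 and 328 CPM and at 277, 295 and 372 CPM. Morrbid, a long noncoding RNA that limits the death gene Bcl2l11, was lower, at 74.6, 68.9 and 40.5 CPM.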

How the data were processed

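Spleen cells of 3 libraries (Chow, MASH, MASH-Phe-free), 1 per group, were measured by 5′ single-cell RNA sequencing. Each deposited count is a whole number of UMIs for 1 of 33696 genes in 1 barcode. The other deposited columns hold gene identifiers, symbols and barcodes. Per the submitters' processing notes Cell Ranger 9.0.1, Seurat 5.3.0 and GRCm39/mm39 were used. The annotation release is not given in the sources used here. Cell calling decides which barcodes exist, and reads of near-identical genes may be dropped or split.

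The filters and the rule of the report were applied with Python 3.11.15, numpy 2.4.6, scipy 1.17.1 and pandas 2.3.3 to 16495, 19219 and 16778 barcodes, which left 15984, 17651 and 15864. Scrublet, run with scanpy 1.11.5, marked 315, 318 and 304 barcodes as doublets (1.97%, 1.80% and 1.92%), of which 1, 6 and 5 were members. They were left out only as an alternative. UMIs were summed over members per library and scaled to 1e6 (CPM). Shares have exact Clopper-Pearson and ratios of CPM exact conditional Poisson 95% intervals, and ratios of shares log-scale binomial ones. The ratio calculation was tested on simulated data.

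The members and the gene lists were chosen with earlier results of these data known. Of 499 list symbols 498 were matched, 18 of them through RefSeq synonyms, and the genes of the rule were left out of list counts. The text names the genes of the rule, at most 4 per list and comparison with the largest log2 ratio and at least 50 UMIs, and the 8 farthest genes in each direction outside the lists. For those, at least 50 CPM and a UMI in at least 5% of members of the higher library were required, with an interval that excluded 1, and unnamed models and genes of receptors, antibodies, haemoglobin, ribosomes, mitochondria and sex chromosomes were not eligible. The fixed naive gate, which needs all 5 further genes at 0, held 62, 26 and 34 cells because Nkg7 had a UMI in 816, 650 and 515 CD8 cells without Ccl5. The wider Ccl5-zero class was therefore used. Some results are not reported here. Isg20, Rsad2, Ifit3 and genes listed for receptor pairs and cell classes were picked after their values were seen.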

Additional observations from a re-analysis of the deposited data

Results flagged for a closer look

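Genes named above were compared between members and Ccl5-zero CD8 cells, and 3 of them passed 1.5-fold in opposite directions in the same comparison of libraries. The difference between the cell classes was not tested, since each library is 1 sample. Mt1 had a log2 ratio of 1.78 for Phe-free over MASH in members and −0.90 in Ccl5-zero CD8 cells, with UMIs in 15 Phe-free members and 1 of them holding 69.7%. Mt2 had 1.54 and −0.88, with UMIs in 2 Phe-free members. Asns, asparagine synthetase, had 0.63 and −0.63, with 55 UMIs in 18 Phe-free members, of which 50.9% lay in 1 cell. Without members that carried another lineage's markers the values in members were 1.04 for Mt1, 0.19 for Mt2 and 0.18 for Asns.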

How the results depend on the processing

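No paired analysis was possible because each group was 1 library. Leaving out a replicate was not possible for the same reason. The ratios of shares stayed on their side of 1 under all 10 alternatives. After thinning to 2000 UMIs the ratio over all barcodes became 2.21 (MASH over Chow) and 0.687 (Phe-free over MASH). Without the large receptor pairs, an alternative chosen after the data were seen, MASH over Chow was 1.34 of all barcodes and 1.53 of the CD8 T gate. That alternative took 67 members from MASH and 0 from Chow, so these ratios could only fall.

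Counts of genes past 1.5-fold depend on the offset, the minimum and the depth. For MASH over Chow they were 519 higher and 564 lower with an offset of 1 CPM, 20 and 24 with 50 CPM, 73 and 71 with a minimum of 100 UMIs, and 448 and 344 after thinning. For Phe-free over MASH they were 503 and 451, 29 and 10, 61 and 43, and 249 and 363. Without members carrying other lineages, chosen after the data were seen, 57 were higher in Phe-free. The cell cycle median for MASH over Chow was −0.58 without innate-like members. After thinning, where fewer genes were measured, the glucocorticoid median was −0.67 for MASH over Chow and that of T cell receptor signalling −0.053 for Phe-free over MASH. The interferon median ranged from 0.28 to 0.59 in MASH over Chow and −0.45 to −0.21 in Phe-free over MASH.

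Only genes chosen by the naming rules that were past 1.5-fold before any alternative were checked for a change of sign. In MASH over Chow, Havcr2 changed sign with every cell weighted alike (−0.064), Plac8 without members carrying other lineages (0.51) and Anxa1 after thinning (0.0043). In Phe-free over MASH, Tyrobp did so without Scrublet doublets (−0.18) and Alad after thinning (−0.27). The cause was not tested.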

Other observations

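Prss2 was also found in Ccl5-zero CD8 cells, in 30 of 871, 4 of 676 and 3 of 543 cells of Chow, MASH, Phe-free, with 76, 21 and 9 UMIs, so the order of the libraries there differed from that in the members.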
